A study of Mus musculus with 6 samples.

Results

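The 36 genes described here encode the route that takes glucose into a cell, breaks it down to pyruvate, and then sends the carbon out as lactate or on into the mitochondrion. A probe was a member if the platform annotation gave it the symbol of one of these genes, with Pkm2 read as an older name of Pkm. Of the 36 genes, 30 had such a probe, out of 19057 genes with a named probe on the array, and their 54 probes were each followed apart. Hk2, Gpi1, Eno1, Mpc1, Mpc2 and G6pdx had no probe under their symbol alone and were not analysed here.

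The RNA came from Sertoli cells of mice 6 weeks old on the strain C57B6J/129SvEv, sorted for a Sox9-GFP label. The 3 conditional knockout (cKO) samples had the genotype Rb1 flox/- with Amh-Cre, a Cre recombinase driven by the promoter of anti-Müllerian hormone, a Sertoli cell gene. The 3 control samples were Rb1 flox/- without Cre, so all 6 samples carry 1 null allele of the retinoblastoma gene, and the presence of Cre and the loss of the floxed allele cannot be told apart. Each sample was read on 1 Illumina bead array; whether different animals gave the 3 samples of a group is not stated in the labels, and the p-values therefore reflect only array-to-array spread, part of which may be technical.

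Glycolysis splits glucose into pyruvate in a chain of steps that hexokinase and phosphofructokinase open and control. Sertoli cells are known for running it fast and turning most of the pyruvate into lactate, which they export through monocarboxylate transporters as fuel for the developing germ cells. Pyruvate that stays enters the mitochondrion and is oxidised by the pyruvate dehydrogenase complex, which the Pdk kinases switch off by phosphorylation. The retinoblastoma protein holds E2F transcription factors in check, and hypoxia-inducible factor (HIF) is a textbook activator of glycolytic genes.

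The arrays themselves set limits on what follows. The detected share of all 45281 probes ran from 43.0% to 50.04% on the cKO arrays and from 46.0% to 53.5% on the controls. The arrays of cKO replicate 1 and control replicate 3 lay at the opposite ends of the first principal component, so several values are also given without them. Both Rb1 probes averaged lower in cKO with no overlap of the arrays, by -1.22 ± 0.32 (SE, n = 3 and 3) and -0.98 ± 0.34 log2 units, but with adjusted p-values of 0.399 and 0.668 in limma, and whether they lie in the deleted stretch was not determined. Transcripts of germ cells were on every array: the protamine gene Prm1 read between 14.72 and 14.90 on the normalised log2 scale on all 6. In such bulk RNA, fewer cells of a type and less RNA per cell cannot be told apart.

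The upstream sequences of 3 members are shown because Pdk1 and Pgam1 had the largest negative differences in cKO among the tested members and Tpi1 was the only tested member whose cKO arrays all lay above the controls. Each is the 250 bases before the gene's start in RefSeq's mouse annotation of GRCm38.p6, written 5′ to 3′ on the gene's strand. Pdk1 lies at chr2:71872974-71873223, plus strand, Pgam1 at chr19:41911621-41911870, plus strand, and Tpi1 at chr6:124814159-124814408, minus strand. Capitals mark the HIF core ACGTG or GCGTG on either strand.
Pdk1: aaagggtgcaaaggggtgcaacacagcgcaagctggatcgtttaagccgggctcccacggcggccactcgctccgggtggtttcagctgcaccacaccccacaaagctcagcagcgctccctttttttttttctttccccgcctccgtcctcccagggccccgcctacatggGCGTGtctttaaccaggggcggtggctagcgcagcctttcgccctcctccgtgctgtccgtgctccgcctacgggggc
Pgam1: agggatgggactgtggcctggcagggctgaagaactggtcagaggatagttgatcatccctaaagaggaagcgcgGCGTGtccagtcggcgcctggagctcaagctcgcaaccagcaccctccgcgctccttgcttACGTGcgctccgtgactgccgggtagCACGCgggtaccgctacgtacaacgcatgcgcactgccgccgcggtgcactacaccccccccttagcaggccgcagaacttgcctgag
Tpi1: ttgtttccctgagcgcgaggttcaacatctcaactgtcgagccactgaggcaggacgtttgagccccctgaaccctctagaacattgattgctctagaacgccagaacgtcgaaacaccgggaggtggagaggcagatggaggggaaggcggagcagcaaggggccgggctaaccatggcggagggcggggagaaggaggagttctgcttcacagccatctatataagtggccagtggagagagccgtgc
Pdk1 had 1 match, Pgam1 had 3 and Tpi1 had 0. Of the other members whose arrays did not overlap, Pfkl had 1 match and Pdha1 had 3. A window was found for 34 members, all but Slc2a3 and Bsg, and 28 of these (82.4%) held the core, against 38.6% of the windows of all 27025 genes. The core contains a CG pair, and the member windows were rich in it, with a median of 14.5 CG pairs against 6.0 over all genes. Letters of the E2F consensus (TTTCCCGC, TTTCGCGC, TTTGCCGC or TTTGGCGC, either strand, searched apart from the HIF core) stood in 0 of the 34 windows and in 1.92% of all windows. A match describes these letters only, and no match says nothing about binding by either factor.

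Of the 54 member probes, 26 were detected on all 6 arrays and 13 on none. A probe was tested if its detection score passed 0.95 on at least 3 of the 6 arrays, whatever their group, which 29 probes of 24 genes did. Eno2, Slc16a1, Bsg, Pdk4, Pgd and Hif1a had probes, but none of theirs was tested. A further 12 untested probes were detected on 1 or 2 arrays, and 8 of these on control replicate 3 alone. Over the whole array 45.1% of the 5158 such probes were also seen on control replicate 3 alone, the array with the largest detected share.

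**Figure D1:**
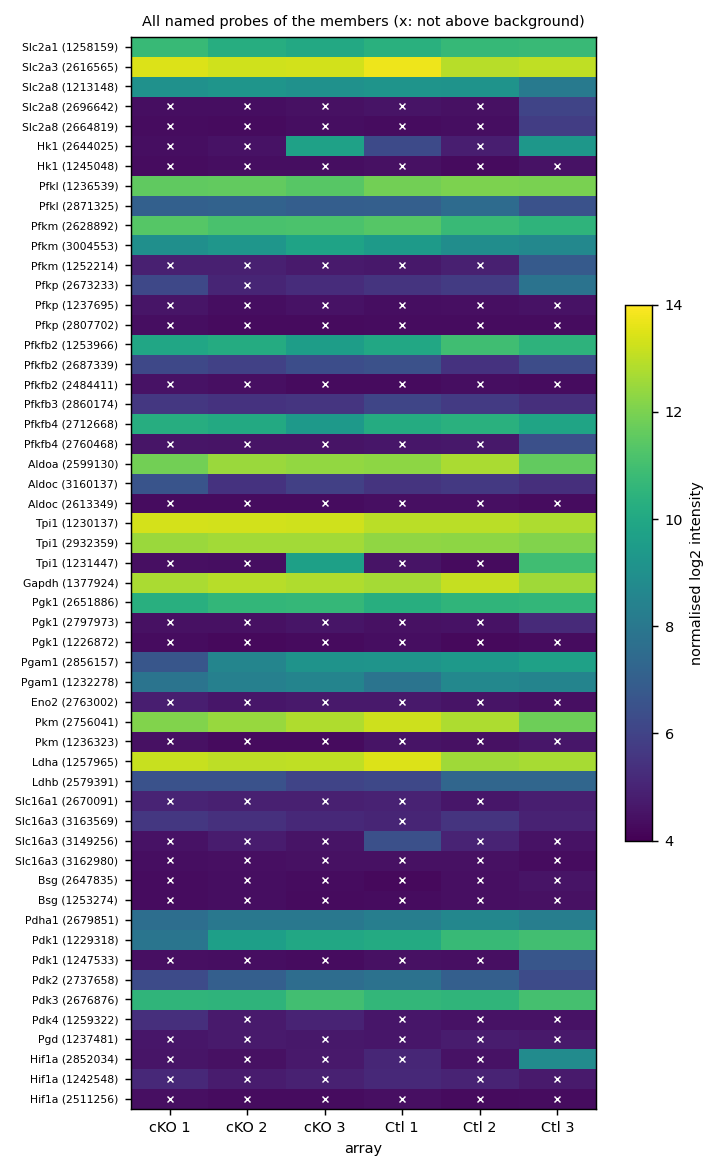
Normalised log2 intensity (colour) of each of the 54 member probes (rows, grouped by gene) on each of the 6 arrays (columns), with a cross where the probe was not above background. Colours can be compared along a row, not between rows; the upper Hk1 row and the last Tpi1 row are bright on both arrays of replicate 3, and 8 probes that were not tested are above background on control replicate 3 alone.

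No member passed the test between cKO and control. In limma 0 of the 29 tested member probes had an adjusted p under 0.05, beside 31 probes higher in cKO (0.142%) and 0 lower (0.0%) among all 21805 tested. With the replicate number as a block, 0 probes of the whole array passed in either direction. The adjusted p-values of the member probes ran from 0.736 to 0.983, and 1 probe, of Pdk1 and lower in cKO, had an unadjusted p under 0.05. Among all tested probes 6.39% did, 4.63% higher and 1.76% lower. With the block, 2 member probes had an unadjusted p under 0.05 in limma, of Pdk1 and Pgam1 and both lower, beside 3257 of all 21805. By the brightest tested probe of each gene, 14 of 24 members averaged lower in cKO, where 38.7% of all 12277 tested genes did. Their median difference was -0.11 log2 units and that of all tested genes 0.12. Without cKO replicate 1 the members' median was 0.058 and 10 of 24 were lower, and without both that array and control replicate 3 it was -0.10 with 18 of 24 lower. With median scaling it was 0.0019 and with the deposited log2 values -0.020, with 12 of 24 lower in each.

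The differences were mostly small, as over the whole array. Their median size was 0.28 log2 units in the members and 0.32 over all tested genes. In 17 of 24 members the difference was under 0.5 log2 units in size, and the 95% confidence interval lay within 1 log2 unit of 0 on both sides for 12. The interval covered 0 for 23, all but Pdk1. The arrays of the groups did not overlap for 2 member probes that were higher in cKO, both of Tpi1, beside 8.04% of all tested probes. They did not overlap for 4 that were lower, of Pdk1, Pgam1, Pfkl and Pdha1, beside 4.01%. By the brightest probe this was 1 of 24 genes higher, beside 9.56% of all tested genes, and 4 lower, beside 4.33%.

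**Figure D2:**
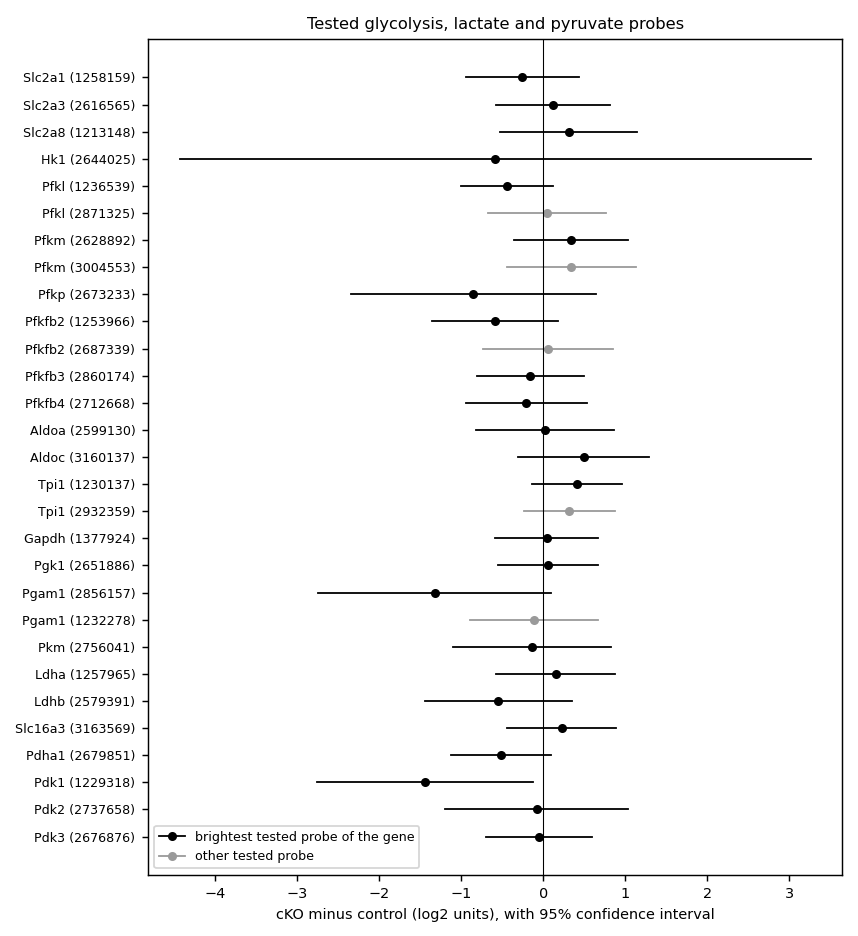
Difference between cKO and control (x axis, log2 units) of each of the 29 tested member probes, with its 95% confidence interval from limma; black points are the brightest tested probe of a gene and grey points its other tested probes. Every interval covers 0 except that of Pdk1, which runs from -2.75 to -0.12, and the Hk1 interval is the widest.

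Glucose enters through the Slc2a transporters, and none of the 3 differed by more than the spread of its arrays. Slc2a1, the widespread basal glucose transporter, read 10.76, 10.25 and 10.05 in cKO, in replicate order, and 10.35, 10.69 and 10.78 in controls. The groups overlapped, and the difference was -0.25 ± 0.29 (SE). Slc2a3, a transporter with high affinity for glucose, read 13.46, 13.29 and 13.32 in cKO and 13.73, 12.92 and 13.06 in controls, a difference of 0.12 ± 0.30. Control replicate 1 was the highest and control replicate 2 the lowest of the 6. Slc2a8, a transporter found mainly inside cells, read between 9.06 and 9.20 on 5 arrays and 8.07 on control replicate 3, with a difference of 0.31 ± 0.35.

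Hk1, a hexokinase that traps glucose in the cell by phosphorylation, could not be compared with any precision. Its tested probe read 4.39, 4.49 and 9.73 in cKO and 6.24, 4.83 and 9.29 in controls. The array of replicate 3 stood far above the others in both groups, with deposited intensities of 872.2 and 670.9 against 42.4 to 97.9 elsewhere. The difference of -0.58 ± 1.64 had an interval from -4.43 to 3.26, and it was 1.58 without cKO replicate 1 and control replicate 3. The other Hk1 probe was not above background on any array.

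The phosphofructokinases commit sugar to glycolysis, and their isoforms did not share a direction. Pfkl, the liver-type subunit, read 11.57, 11.59 and 11.39 in cKO and 11.85, 12.04 and 11.98 in controls. All 3 cKO arrays lay below all 3 controls by a narrow margin, and the difference was -0.44 ± 0.24 (adjusted p = 0.766 in limma). Its dimmer probe gave 0.05 ± 0.31, with overlapping arrays. Pfkm, the muscle-type subunit, read 11.36, 11.14 and 11.17 in cKO and 11.36, 10.80 and 10.52 in controls, a difference of 0.34 ± 0.30. Its second probe gave 0.34 ± 0.34. The first was 0.15 without control replicate 3, 0.57 without control replicate 1 and 0.080 without both control replicate 3 and cKO replicate 1. Pfkp, the platelet-type subunit, read 6.16, 5.05 and 5.28 against 5.52, 5.72 and 7.81, so that its -0.85 ± 0.64 came with 1 high control array. Without control replicate 3 it was -0.12.

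The Pfkfb enzymes make and remove the sugar bisphosphate that activates phosphofructokinase, and all 3 averaged lower in cKO without passing the test. Pfkfb2 read 9.92, 10.15 and 9.56 in cKO and 9.997, 10.92 and 10.48 in controls. Only cKO replicate 2 exceeded the lowest control, and the difference was -0.59 ± 0.33. A dimmer Pfkfb2 probe gave 0.06 ± 0.34. Pfkfb3 differed by -0.16 ± 0.28 and Pfkfb4 by -0.20 ± 0.31, both with overlapping arrays.

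Further down glycolysis Tpi1 averaged higher in cKO on both of its tested probes. Triosephosphate isomerase, its product, interconverts the small sugar phosphates that aldolase releases. The brightest probe read 13.36, 13.31 and 13.28 in cKO and 12.96, 12.96 and 12.79 in controls, and the other tested probe 12.49, 12.62 and 12.61 against 12.33, 12.31 and 12.12. Every cKO array was above every control on both. The differences were 0.41 ± 0.23, or 1.33-fold (95% interval -0.13 to 0.96 log2 units, adjusted p = 0.766 in limma), and 0.32 ± 0.24. The remaining Tpi1 probe was above background only on the replicate 3 arrays, at 9.67 in cKO and 10.94 in the control, and between 4.28 and 4.51 elsewhere.

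Pgam1, the phosphoglycerate mutase of most tissues, had probes that disagreed. The brightest read 6.67, 8.53 and 9.16 in cKO and 9.19, 9.40 and 9.74 in controls. The cKO arrays were all below the controls, replicate 3 only just and replicate 1 by far. The difference was -1.32 ± 0.61, or 0.400-fold (95% interval -2.75 to 0.10, adjusted p = 0.766 in limma), and it was -0.60 without cKO replicate 1. The other probe read 7.86, 8.35 and 8.50 against 7.84, 8.69 and 8.53, a difference of -0.11 ± 0.33 with overlapping arrays.

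For the other enzymes of this stretch the arrays of the groups overlapped. Gapdh, the glyceraldehyde phosphate dehydrogenase often used as a reference gene, read 12.74, 12.94 and 12.80 in cKO and 12.64, 13.13 and 12.57 in controls, a difference of 0.05 ± 0.27. Aldoa, the main aldolase, differed by 0.03 ± 0.36 and Pgk1, the phosphoglycerate kinase, by 0.05 ± 0.26. Aldoc, a brain-type aldolase, read 6.61, 5.47 and 5.90 in cKO and 5.50, 5.65 and 5.35 in controls, so the highest value was on cKO replicate 1 and the difference was 0.49 ± 0.34. It was 0.19 without cKO replicate 1 and 0.11 without both that array and control replicate 3. Pkm, the pyruvate kinase that ends glycolysis, read 12.10, 12.47 and 12.81 in cKO and 13.22, 12.76 and 11.81 in controls. The controls spanned more than the cKO arrays, and the difference of -0.13 ± 0.41 took the opposite sign with median scaling (0.050) and with the deposited log2 values (0.025).

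**Figure D3:**
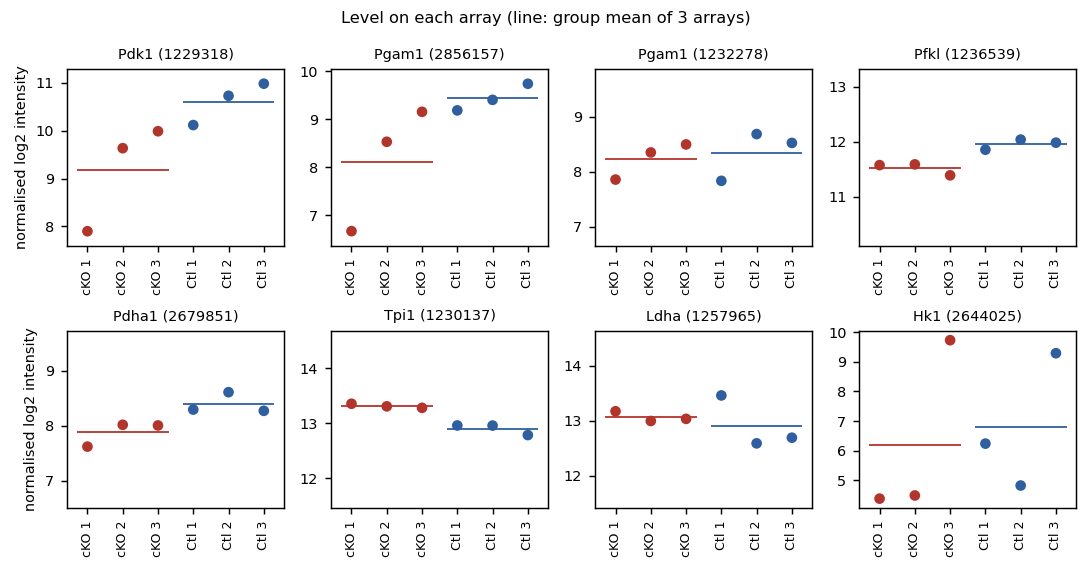
Normalised log2 intensity (y axis) of 8 member probes on each of the 6 arrays (x axis), red for cKO and blue for control (Ctl), with a line at each group's mean of 3 arrays. Axes differ between panels; Pdk1 and the first Pgam1 probe are lowest on cKO replicate 1, the Tpi1 and Pfkl arrays do not overlap between groups, and Hk1 is high on both arrays of replicate 3.

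The lactate dehydrogenase transcripts Ldha and Ldhb gave no difference beyond the spread of the arrays. Lactate itself was not measured. Ldhc, outside the members and counted among the spermatocyte markers, read 14.66 to 14.90 over all 6 arrays. Ldha, the lactate dehydrogenase subunit that favours making lactate, read 13.17, 12.99 and 13.03 in cKO and 13.46, 12.59 and 12.69 in controls. The groups overlapped, and the difference was 0.15 ± 0.31 with a 95% interval from -0.57 to 0.88. Ldhb, the subunit that favours using lactate, read 6.54, 6.53 and 6.05 against 6.16, 7.30 and 7.30, a difference of -0.55 ± 0.38. Controls 2 and 3 were above every cKO array, and control 1 was below all but cKO replicate 3.

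Transcripts for lactate export could be read only at the edge of detection. Slc16a3, the monocarboxylate exporter of highly glycolytic cells, read 5.63, 5.37 and 5.15 in cKO and 5.02, 5.51 and 4.95 in controls on its one tested probe, a difference of 0.22 ± 0.28. Another Slc16a3 probe was above background only on control replicate 1, at 6.46, and read 4.47 to 5.01 on the other arrays. The last Slc16a3 probe was not above background on any array. Slc16a1, the widespread monocarboxylate transporter, was above background on 1 array, a control, and read between 4.62 and 4.98 on all 6. Both probes of Bsg, the chaperone that carries these transporters to the membrane, were not above background on any array. No difference in these export genes was detectable at this signal.

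Pyruvate oxidation held the member with the smallest p. Pdk1, a kinase that shuts off pyruvate dehydrogenase, read 7.90, 9.64 and 9.99 in cKO and 10.12, 10.73 and 10.98 in controls. All cKO arrays were below all controls, with replicate 1 farthest down and cKO replicate 3 close to control replicate 1. The difference was -1.44 ± 0.56, or 0.370-fold (95% interval -2.75 to -0.12, unadjusted p = 0.0363 and adjusted p = 0.736 in limma). It was -0.80 without cKO replicate 1 and -0.61 without both that array and control replicate 3. Its unadjusted p in limma was not under 0.05 without cKO replicate 1, without control replicate 2 or without control replicate 3. The same held without both cKO replicate 1 and control replicate 3, and with dim probes kept. A second Pdk1 probe was above background on control replicate 3 alone.

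Pdha1, the catalytic subunit of pyruvate dehydrogenase that these kinases act on, read 7.62, 8.02 and 8.01 in cKO and 8.30, 8.61 and 8.27 in controls. Its cKO arrays also lay below all controls, at -0.51 ± 0.26 (adjusted p = 0.766 in limma). Pdk2 read 6.28, 7.03 and 7.56 against 7.78, 7.03 and 6.30, a similar span in both groups, and differed by -0.08 ± 0.48. Pdk3 differed by -0.05 ± 0.28. All 4 tested members at pyruvate entry thus had negative differences, from -1.44 to -0.05, where 38.7% of all tested genes averaged lower. Those of Pdk2 and Pdk3 were smaller than their SE. The untested Pdk4 went the other way near background, averaging 5.03 in cKO and 4.54 in controls.

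The branch and control genes of the list were too dim to test. Pgd, an enzyme of the pentose phosphate branch, was not above background on any array. Hif1a, the oxygen-regulated subunit of HIF, had a probe at 8.81 on control replicate 3 and at 4.44 to 5.08, not above background, on the others. Its remaining probes were above background on 1 array or none. Eno2, an enolase of neurons, was not above background on any array.

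Genes of the surrounding pathways gave 0 calls in limma as well, where 0.195% of all tested genes were called as higher. At an unadjusted p under 0.05 the background was 7.77% of all tested genes. Among other glycolytic and gluconeogenic genes 18 of 29 were tested, 14 averaged higher in cKO and the median was 0.30, beside 0.12 over all tested genes, of which 38.7% averaged lower. This median was 0.17 without cKO replicate 1, 0.18 without control replicate 3 and 0.13 without both. At an unadjusted p under 0.05 there were 2 genes. Ldhd, a mitochondrial dehydrogenase of D-lactate, read 7.85, 7.75 and 7.88 in cKO and 6.50, 7.65 and 6.44 in controls, a difference of 0.96 ± 0.37 (adjusted p = 0.731 in limma). Slc2a5, the fructose transporter, differed by 0.58 ± 0.24. Gapdhs, the sperm form of Gapdh, read 14.03, 13.93 and 13.83 in cKO and 13.72, 13.42 and 12.20 in controls, a difference of 0.82 ± 0.41. It also belongs to the spermatid markers. Pgk2 and Ldhc of this list also belong to the spermatocyte markers, so the medians of these lists share probes. The arrays did not overlap for Ldhd, Slc2a5 or Gapdhs, where those of 9.56% of all tested genes were separate and higher in cKO. These 3 were picked for the smallest p-values of the list, which favours separate arrays.

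Of the pyruvate dehydrogenase complex and the citric acid cycle 22 of 26 genes were tested, 9 lower and 13 higher, with a median of 0.03 and 1 at an unadjusted p under 0.05. That gene was Idh2, the mitochondrial isocitrate dehydrogenase that makes NADPH. It read 8.27, 8.92 and 8.30 in cKO and 7.04, 7.39 and 7.19 in controls, a difference of 1.29 ± 0.29 (adjusted p = 0.262 in limma) with every cKO array above every control. Pdp1, a phosphatase that undoes the work of the Pdk kinases, read 5.64, 7.48 and 8.26 against 7.90, 8.31 and 10.15, a difference of -1.66 ± 0.80 with overlapping arrays. Pdp2, the other such phosphatase, differed by -0.71 ± 0.41.

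All 8 of the other pentose phosphate genes were tested, 7 higher and 1 lower, with a median of 0.18 and 0 at an unadjusted p under 0.05. Rpe, an epimerase of the branch, differed by -0.78 ± 0.45, the transketolase-like gene Tktl1 by 0.84 ± 0.57, and the lactonase Pgls by 0.19 ± 0.24. Of hypoxia genes outside glycolysis 14 of 21 were tested, 7 in each direction, with a median of -0.01 and 0 at an unadjusted p under 0.05. Hif1an, a hydroxylase that inhibits HIF, differed by -0.70 ± 0.36, Ankrd37 by 0.60 ± 0.35 and Ddit4, a stress-induced inhibitor of mTOR signalling, by -0.47 ± 0.31.

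Marker genes of Sertoli and other testis cells also averaged differently in the groups, without passing the test. Sertoli markers were tested for 16 of 21 genes, and 15 averaged lower in cKO, where 38.7% of all tested genes did. Their median was -0.48, with 0 called and 1 at an unadjusted p under 0.05 in limma. Relative to the control mean, their mean was -1.61, -0.52 and -0.14 on the cKO arrays and between -0.23 and 0.16 on the controls. Inha, the inhibin alpha subunit, was the lowest of them at -2.69 and read 5.42 on cKO replicate 1 and 9.92 to 12.85 on the rest, whereas Sox9, the gene whose reporter was sorted, read 11.48 to 11.82 in cKO and 11.83 to 12.20 in controls. Leydig markers were tested for 4 of 6 genes and all averaged higher, with a median of 1.43 and means of 2.13, 0.78 and 1.02 on the cKO arrays against -0.30 to 0.33 on the controls. Of these 4 genes, 2 had an unadjusted p under 0.05 in limma.

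The other lists followed with fewer genes. Median differences were 0.67 for 8 spermatogonial markers, 0.39 for 6 of spermatocytes, 0.23 for 7 of spermatids, 1.05 for 4 of peritubular myoid cells, 0.95 for 4 of endothelium, 1.19 for 2 of leukocytes and -0.28 for 2 of erythrocytes, with 0 called in limma at an adjusted p under 0.05 and, in the order given, 3, 0, 0, 3, 2, 1 and 0 at an unadjusted p under 0.05. Over all tested genes 7.77% had an unadjusted p under 0.05 in limma. Relative to the control mean, the mean of the 24 members was -0.36, -0.25 and -0.01 on the cKO arrays and -0.03, 0.00 and 0.03 on the controls. Without Hk1 it was -0.27, -0.16 and -0.14 on the cKO arrays and between -0.08 and 0.09 on the controls. Pdk1 and the brightest Pgam1 probe were lowest on the array where the Sertoli markers were lowest and the Leydig markers highest, cKO replicate 1. Genes of other lists were also lowest there. The spermatid marker Odf1 read 11.20 against 13.42 to 14.53 elsewhere, and Mdh1 of the citric acid cycle 4.63 against 7.43 to 8.85. The Sertoli marker Cldn11 read 14.40 there and 14.49 to 14.61 elsewhere. That array also had the lowest detected share of probes, 43.0%. The part of the cell type markers, or of this array as a whole, in the members' values was not tested.

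**Figure D4:**
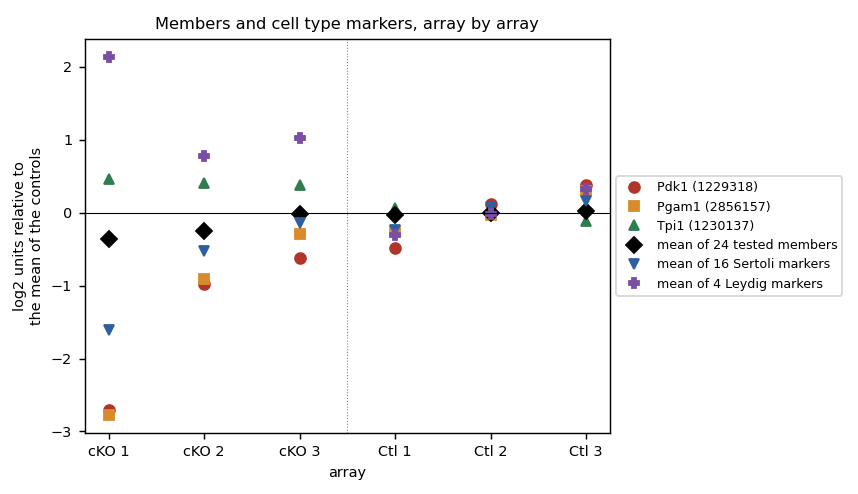
Level on each array (x axis) relative to the mean of the 3 control arrays (y axis, log2 units) for 3 member probes and for the means of the 24 tested members, 16 Sertoli markers and 4 Leydig markers. On cKO replicate 1 Pdk1 and Pgam1 lie lowest, together with the Sertoli markers at -1.61, while the Leydig markers lie at 2.13; the Tpi1 probe is nearly level across the 3 cKO arrays.

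The 5 members with separate arrays kept their direction over the 15 other settings tried, although their size changed in some. For most settings the direction was fixed beforehand. Leaving out arrays cannot reverse members picked for arrays that do not overlap. The filter, the probes per gene and the block left each difference as it was. Only the changes of background correction and scaling could have reversed a direction. Pdk1 ran from -1.84 to -0.61 and Pgam1 from -1.84 to -0.45, the smallest values both coming without cKO replicate 1 and control replicate 3. Pfkl ran from -0.49 to -0.25, Pdha1 from -0.58 to -0.38 and Tpi1 from 0.33 to 0.63. The smallest adjusted p of these 5 under any setting was 0.219, for Pdk1 with the replicate block, and adjusted p-values for Pdk1 reached 1.00.

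**Figure D5:**
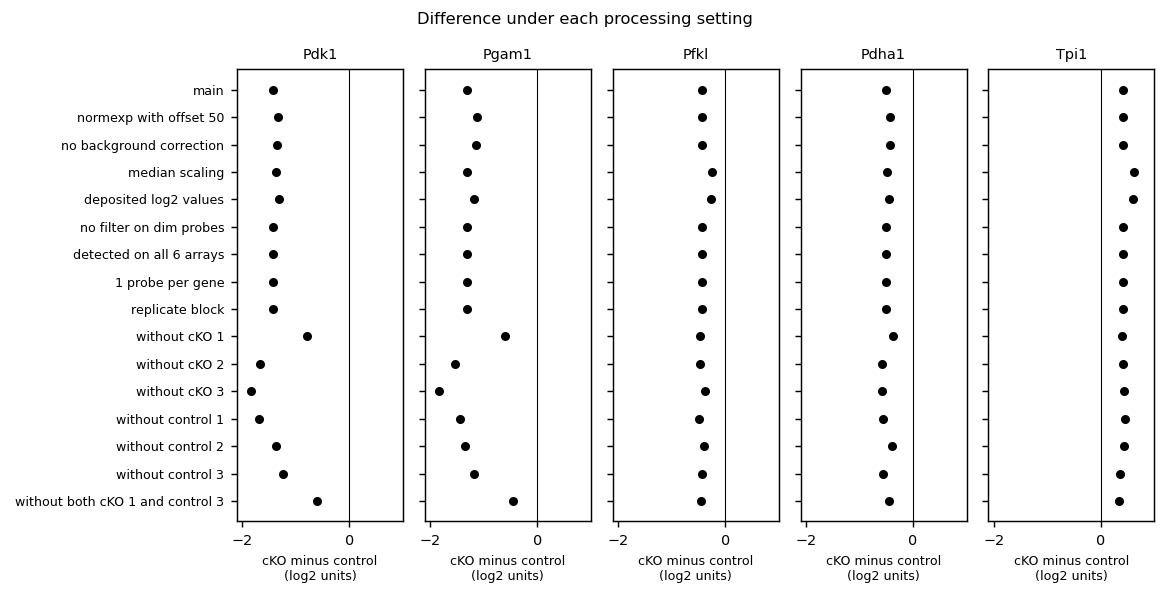
Difference between cKO and control (x axis, log2 units) of the brightest tested probe of 5 members under the main setting and 15 others (y axis). All points of a gene lie on 1 side of 0, which leaving out arrays could not change for these members. Pdk1 and Pgam1 lie nearest to 0 without both cKO replicate 1 and control replicate 3. Pfkl and Tpi1 shift toward higher values with median scaling and with the deposited log2 values.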

How the data were processed

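Per the labels' protocols, RNA of sorted cells was amplified into biotinylated cRNA and hybridised to bead arrays. The submitters' processing notes name BeadStudio, giving no version. The deposited array tables give, per the file headers, each probe's mean intensity, bead number and a detection score, taken as detected over 0.95. The deposited series table holds log2 values, which equal log2 intensity with the 75th percentile of its array and then the probe's median subtracted; the sources used here do not name the tool. This relation joined all 45281 probe numbers to probe IDs (largest distance 0.00040, next probe at least 0.0028 away). The cKO columns had medians of 0.244, -0.022 and -0.194, and the control columns 0.040, 0.098 and -0.301.

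Intensities were background-corrected and quantile-normalised in limma 3.58.1 (neqc, offset 16, R 4.3.3). Probes detected on at least 3 arrays, 21805 in all, were fitted with lmFit and eBayes, group as the only term, two-sided, with Benjamini-Hochberg adjustment at 0.05 over all of them. The fit was tested on simulated data with independent arrays and planted changes larger than the members' differences. That test therefore does not bear on arrays that deviate together or on small differences. Of the probes 34885 had 1 gene symbol, 18 several and 10378 none. Written out array by array were the 10 members with the smallest unadjusted p and the pathway's entry, exit and branch points; from each other pathway list, the 3 genes with the smallest p. Members, lists and tests were chosen with earlier results of these data known. Same-numbered arrays deviated together (correlations 0.262, 0.410 and 0.473 over tested probes). On these correlations alone the numbers were taken as possible pairs and entered as a block in an alternative. The main fit left the pairs out. Other alternatives changed the background correction, scaling, filter, probes per gene and arrays included. The number of arrays, 3 per group, limits the precision.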

Additional observations from a re-analysis of the deposited data

Results flagged for a closer look

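The probe of Pdk4, a kinase of pyruvate dehydrogenase induced by fasting, was outside the test because it was detected on only 2 arrays. Both were cKO arrays, replicates 1 and 3, at 5.36 and 4.99 on the normalised log2 scale. The 3 cKO arrays averaged 5.03, and the controls read 4.62, 4.51 and 4.49, none above background. With dim probes kept, 3 member probes higher in cKO had an unadjusted p under 0.05 in limma, of Pdk4 and Tpi1. So did 2 lower ones, of Pdha1 and Pfkl, beside 2303 of all 45281 probes. No member's adjusted p was under 0.522. The flag sought untested probes detected on at least 2 cKO arrays and no control, and the reverse pattern was not searched.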

How the results depend on the processing

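Under every alternative run, 0 member probes passed the threshold in limma. Over the whole array 31 probes passed, against 12 with a normexp offset of 50, 1 with dim probes kept, 12 with no background correction, 56 with 1 probe per gene, 0 with the replicate block, 6 without both cKO replicate 1 and control replicate 3, and 0 to 15 leaving out each array. Pairing by the block changed no call of a member. The members' median ran from -0.14 to 0.058 leaving out each array, the positive value being without cKO replicate 1. The median of the other glycolytic genes was 0.41 with median scaling, 0.13 without both arrays, and 0.17 to 0.43 leaving out each array. Without both arrays Slc2a3 read -0.022, Gapdh -0.019, Ldha -0.0095, Slc16a3 -0.0037 and Hk1 1.58. Pkm read 0.050 with median scaling and 0.025 with the deposited values. Leaving out each array gave opposite signs for Hk1 (-2.35 to 0.67), Pkm (-0.53 to 0.18), Gapdh (-0.059 to 0.22), Slc2a3 (-0.038 to 0.37) and Ldha (-0.0085 to 0.43), and Slc16a3 ranged up to 0.40. In these cases, and for the counts that moved, the cause was not tested. Medians near 0 also took the other sign under some alternatives, the members' median among them at 0.0019 with median scaling. Hk1, Pfkp and Slc16a3 had no value when only probes detected on all 6 arrays were kept. The exporter genes were limited by signal near background.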

Other observations

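Hk1 and the untested Tpi1 probe were high on both arrays of replicate 3 and at or near background on most others. Chosen after these values were seen, a count was made of probes for which both arrays of 1 replicate number lay more than 2 log2 units above the other 4. There were 105 such probes of 45281 (0.232%) for replicate 3, 5 for replicate 1 and 0 for replicate 2. G6pc3, a glucose phosphatase subunit, met the same rule: it read 5.15, 5.09 and 9.22 on the cKO arrays and 6.63, 5.89 and 10.56 on the controls.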
